A study of Rattus norvegicus with 13 samples.

Results

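Transcripts of 9 genes of the immunoproteasome and of peptide loading onto MHC class I were measured in the hearts of male rats aged 45 weeks, in tissue of the left ventricle, the chamber that drives blood into the body. The 9 genes were Psmb8, Psmb9, Psmb10, Psme1, Psme2, Tap1, Tap2, Tapbp and B2m, taken by gene name from the spots of an Agilent 1-colour array that are not controls. Each gene had 1 probe, so the 9 genes stand on 9 probes. All 9 were among the 15367 gene names that were bright enough to test, of 26115 on the array. Rats labelled ADBR3 overexpressing, for the β3-adrenergic receptor (7 arrays from 5 rats), were set against WT rats of the same sex and age (6 arrays from 4 rats). The strain, and the promoter and cell type used for the overexpression, are not given in the sources used here. Hearts 1 and 2 of each group are labelings of the RNA of 1 rat and were averaged, and ADBR3 heart 4 and WT heart 5 are repeat hybridizations that were left out because the array they repeat is not named. The array's 1 probe for rat Adrb3 was well above background on 1 of 7 ADBR3 arrays and on 0 of 6 WT arrays, and since the introduced sequence is not stated it does not check the labels. Rats are named here by group and heart number, as ADBR3 1, 3, 5, 6 and 7 and WT 1, 3, 4 and 6.

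Most cells cut worn-out and foreign proteins into peptides with the proteasome, a barrel whose cutting chambers are formed by catalytic subunits. Under interferon, the catalytic subunits are exchanged for inducible ones, encoded by Psmb8, Psmb9 and Psmb10, and the PA28 activator, encoded by Psme1 and Psme2, docks on the ends of the barrel. The TAP transporter, made of the products of Tap1 and Tap2, carries peptides into the endoplasmic reticulum, where tapasin, encoded by Tapbp, holds TAP next to MHC class I molecules that wait for a peptide. β2-microglobulin, encoded by B2m, is the light chain without which class I molecules do not reach the cell surface. In the heart, immune and endothelial cells are known for these genes more than cardiomyocytes are.

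Values are log2 signals counted from the 75th percentile of their array, written as a level, and a difference is the ADBR3 mean minus the WT mean on that scale. None of the 9 genes passed the test across all genes (limma, Benjamini-Hochberg adjusted p under 0.05), which 0.00651% of all genes tested passed. All 9 genes had a lower mean in ADBR3 rats than in WT rats, against 53.3% of all genes tested, although 7 of the 9 did where arrays were scaled to their median in place of the 75th percentile. The differences lay between -0.31 and -0.03, with a median of -0.191, against a median of -0.00892 over all genes tested and 5th and 95th percentiles of -0.325 and 0.233. At an unadjusted limma p under 0.05, 4 of the 9 were lower, against 6.29% of all genes tested, and none was higher, against 3.15%. This count was 1 with median scaling and 1 with slide as a block. The block for slide compares the groups only on slides 1 and 3, with WT rats 1, 4 and 6 and ADBR3 rats 1 and 7. It therefore rests on fewer rats than the main test. The median difference was -0.1143 with normexp and quantile normalization and -0.1039 with the values of the deposited table. One gene, Psmb9, had every ADBR3 rat below every WT rat, which held for 2.3% of all genes tested, and none had every ADBR3 rat above every WT rat, which held for 1.22%. All 9 probes were well above background on all 7 ADBR3 and all 6 WT arrays.

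A short motif known from interferon-induced genes is shown here because most of the 9 promoters hold it. In the RefSeq promoter windows of assembly GRCr8, which run from 250 bases before to 50 bases after the gene start, the letters GAAA and GAAA with any 2 bases between them, a form of the interferon-stimulated response element (ISRE), were found on either strand in 7 of the 9 genes. They are in 3.92% of all 33469 promoter windows. The windows of Psmb9 and Psme1 did not hold these letters. Stretches of 40 bases around the match follow, 5′ to 3′ on the strand of the gene, with the match in capitals.
Tap2: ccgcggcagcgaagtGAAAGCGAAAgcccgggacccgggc
Psme2: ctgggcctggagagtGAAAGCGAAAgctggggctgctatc
Psmb10: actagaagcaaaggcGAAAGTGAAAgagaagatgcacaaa
B2m: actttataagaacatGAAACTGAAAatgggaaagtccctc
Tapbp: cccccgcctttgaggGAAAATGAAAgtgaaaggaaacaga
Tap1: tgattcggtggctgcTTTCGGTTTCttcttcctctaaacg

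These stretches lie at chr20:4652313-4652352 on the minus strand for Tap2, chr15:33052780-33052819 on the minus strand for Psme2 and chr19:50743341-50743380 on the minus strand for Psmb10. They lie at chr3:129549165-129549204 on the plus strand for B2m, chr20:4967879-4967918 on the minus strand for Tapbp and chr20:4668640-4668679 on the minus strand for Tap1. In Tap1 the match reads on the other strand from the gene, and the same is true of Psmb8, whose match TTTCGCTTTC begins 4 bases before the gene start. The same 10 letters, GAAAGCGAAA, were present in Tap2, in Psme2, in a second match of Psmb10 that begins 17 bases before its start, and, on the other strand, in Psmb8. Tapbp held 2 overlapping matches. Tap1 and Psmb9 are read in opposite directions from starts 457 bases apart, and the Tap1 match lies between them, 336 bases before the Psmb9 start and so outside the window searched for Psmb9. The letters TTC and GAA with any 3 bases between them, a form of the gamma-activated site, were in 1 of the 9 windows, that of Psmb8, against 8.87% of all windows. The letters GGG and CC with any 5 bases between them, a loose form of the kappa B site, were in 6 of 9 against 47.3%, and CCAAT was in 3 of 9 against 37.5%. A match describes the letters of the window and was not set against any measurement of binding.

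Among the inducible catalytic subunits, Psmb9 and Psmb8 were lower in ADBR3 rats and Psmb10 was nearly level between the groups. Psmb9, which takes the place of the constitutive subunit encoded by Psmb6, had levels of 1.21, 1.15, 1.34, 1.13 and 1.21 in ADBR3 rats 1, 3, 5, 6 and 7, against 1.63, 1.66, 1.36 and 1.44 in WT rats 1, 3, 4 and 6. The groups did not overlap, though the highest ADBR3 rat, 5, and the lowest WT rat, 4, lay close together. The mean was 1.21 ± 0.0814 (SD, n = 5) in ADBR3 rats and 1.52 ± 0.144 (SD, n = 4) in WT rats, a level 1.24-fold lower. The difference of -0.31 ± 0.0759 (SE) had a 95% interval of -0.49 to -0.14 and did not pass the adjustment over all genes (limma, Benjamini-Hochberg adjusted p = 0.299). With each array scaled to its median the groups overlapped and the difference was -0.2723.

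Psmb8, which takes the place of the chymotrypsin-like subunit encoded by Psmb5, had levels of 0.26, 0.20, -0.03, 0.16 and 0.20 in ADBR3 rats, against 0.57, 0.66, 0.48 and 0.10 in WT rats, in the same order of rats. WT rat 6 lay inside the range of the ADBR3 rats, and the other WT rats lay above all of them. The mean was 0.158 ± 0.111 (SD, n = 5) in ADBR3 rats and 0.454 ± 0.246 (SD, n = 4) in WT rats, 1.23-fold lower. This gave -0.30 ± 0.113 as the difference (SE; limma, Benjamini-Hochberg adjusted p = 0.483). Without WT rat 6 it was -0.4131 (limma, adjusted p = 0.384), and with slide as a block it was -0.1827 (limma, adjusted p = 0.9726).

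Psmb10, which takes the place of the trypsin-like subunit encoded by Psmb7, had levels of 2.31, 2.44, 2.56, 2.45 and 2.60 in ADBR3 rats, against 2.63, 2.47, 2.54 and 2.41 in WT rats. The groups overlapped over most of their range. The difference was -0.04, with a 95% interval of -0.21 to 0.12 (limma, Benjamini-Hochberg adjusted p = 0.875), and with each array scaled to its median it was 1.916e-05, on the other side of 0.

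The probes that carried these values lie on chromosome 20 of build rn4, the build of the array design. The Psmb9 probe covers chr20:4806341-4806400 on the plus strand and the Psmb8 probe chr20:4787980-4788039 on the minus strand. Their sequences are shown because the largest differences among the 9 genes rest on these spots.
Psmb9 probe: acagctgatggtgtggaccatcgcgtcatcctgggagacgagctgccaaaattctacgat
Psmb8 probe: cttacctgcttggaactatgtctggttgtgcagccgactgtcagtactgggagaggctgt

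**Figure D1:**
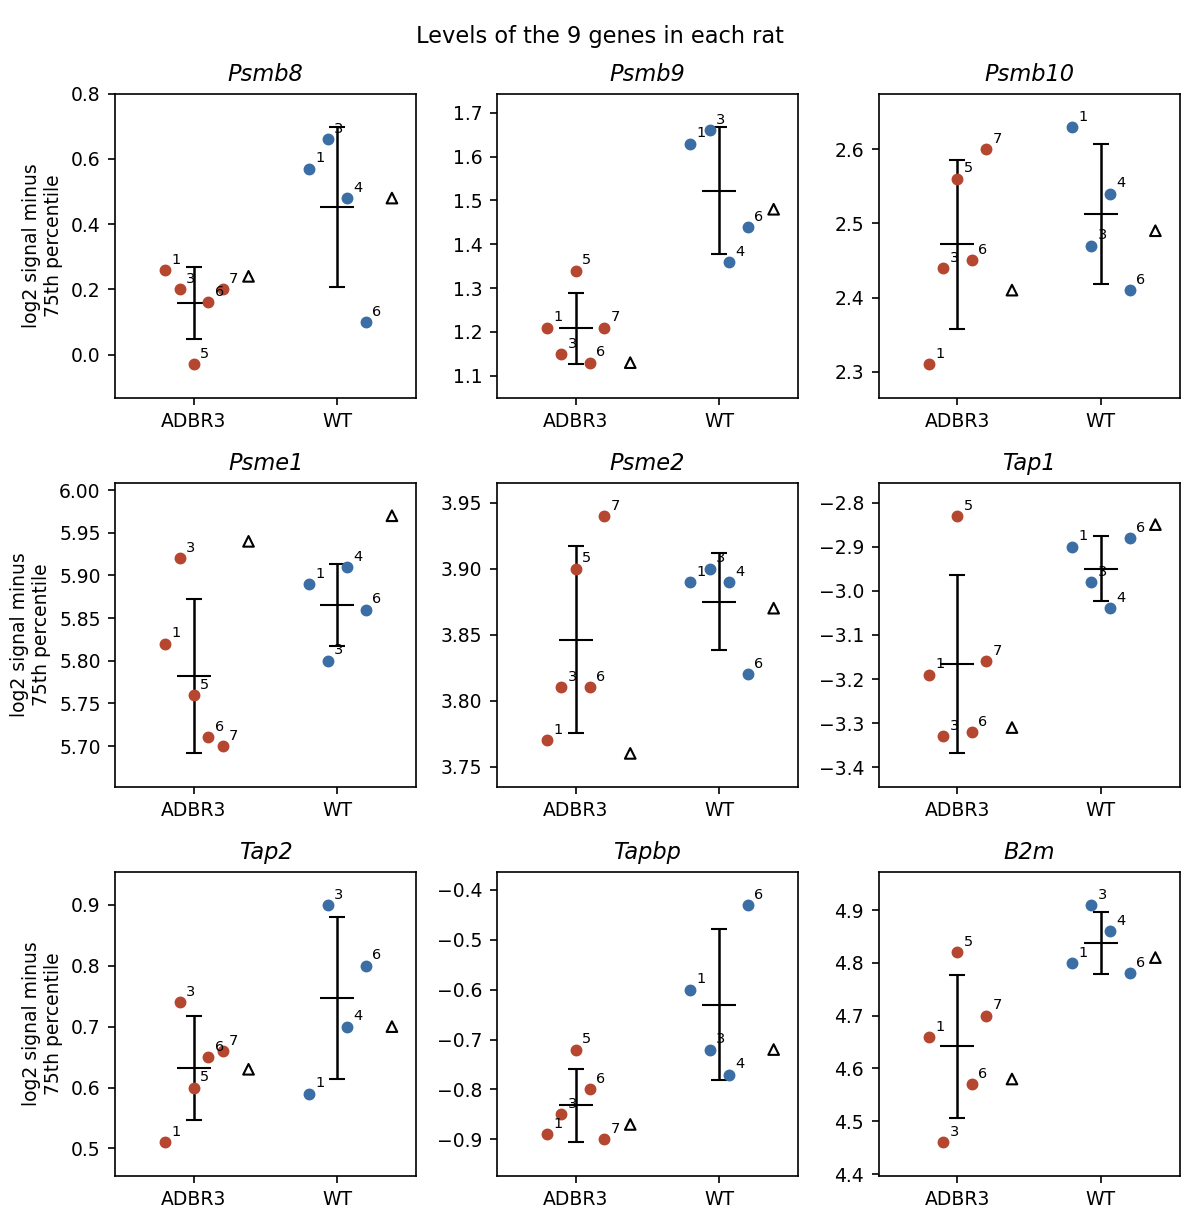
Level of each of the 9 genes in each rat, as log2 signal minus the 75th percentile of the array, with ADBR3 rats on the left and WT rats on the right of each panel. Points are rats with their heart number, bars are the mean and SD over 5 ADBR3 and 4 WT rats, and open triangles are the repeat hybridizations that were left out. Each panel has its own axis. Psmb9 is the panel in which all ADBR3 points lie below all WT points.

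The PA28 activator genes differed little. Psme1, the α subunit, had levels of 5.82, 5.92, 5.76, 5.71 and 5.70 in ADBR3 rats, against 5.89, 5.80, 5.91 and 5.86 in WT rats, and the highest of all rats was ADBR3 3. Psme2, the β subunit, had levels of 3.77, 3.81, 3.90, 3.81 and 3.94 in ADBR3 rats, against 3.89, 3.90, 3.89 and 3.82 in WT rats, and the highest was ADBR3 7. The ranges overlapped for both genes. Psme1 averaged 5.78 ± 0.0895 in ADBR3 rats and 5.87 ± 0.0467 in WT rats, and Psme2 3.84 ± 0.07 and 3.88 ± 0.0359 (SD, n = 5 and n = 4). The difference of Psme1 was -0.08, with a 95% interval of -0.21 to 0.04 (limma, Benjamini-Hochberg adjusted p = 0.642). That of Psme2 was -0.03, with an interval of -0.15 to 0.08 (limma, adjusted p = 0.848), and 0.008158 with each array scaled to its median. Psme2 is read by 10 spots an array and each of the other genes by 2.

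Both TAP genes had lower means in ADBR3 rats. Tap1 had levels of -3.19, -3.33, -2.83, -3.32 and -3.16 in ADBR3 rats, against -2.90, -2.98, -3.04 and -2.88 in WT rats. ADBR3 rat 5 was the highest of all 9 rats, and the other ADBR3 rats lay below every WT rat. The mean was -3.17 ± 0.203 (SD, n = 5) in ADBR3 rats and -2.95 ± 0.071 (SD, n = 4) in WT rats, 1.16-fold lower. The difference was -0.21 ± 0.102 (SE), with a 95% interval of -0.44 to 0.02 (limma, Benjamini-Hochberg adjusted p = 0.532). It was -0.08933 with normexp and quantile normalization and -0.09919 with the values of the deposited table.

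Tap2 had levels of 0.51, 0.74, 0.60, 0.65 and 0.66 in ADBR3 rats, against 0.59, 0.90, 0.70 and 0.80 in WT rats, and the ranges overlapped. The difference was -0.11, with a 95% interval of -0.28 to 0.05 (limma, Benjamini-Hochberg adjusted p = 0.629). The labelings of 1 rat differed by 0.28 in ADBR3 rat 1 and by 0.32 in WT rat 1, more than the groups did. For the other 8 genes the labelings of 1 rat differed by 0.16 or less.

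Tapbp and B2m were also lower on average. Tapbp had levels of -0.89, -0.85, -0.72, -0.80 and -0.90 in ADBR3 rats, against -0.60, -0.72, -0.77 and -0.43 in WT rats. ADBR3 rat 5 was the only ADBR3 rat inside the WT range. The mean was -0.831 ± 0.0746 (SD, n = 5) in ADBR3 rats and -0.631 ± 0.152 (SD, n = 4) in WT rats, 1.15-fold lower, which is a difference of -0.20 ± 0.0769 (SE; limma, Benjamini-Hochberg adjusted p = 0.487). This was -0.133 without WT rat 6 and -0.3037 with slide as a block. B2m had levels of 4.66, 4.46, 4.82, 4.57 and 4.70 in ADBR3 rats, against 4.80, 4.91, 4.86 and 4.78 in WT rats. Again ADBR3 rat 5 lay inside the WT range and the other ADBR3 rats lay below it. The mean was 4.64 ± 0.135 (SD, n = 5) in ADBR3 rats and 4.83 ± 0.0595 (SD, n = 4) in WT rats, 1.14-fold lower, which is a difference of -0.19 ± 0.0743 (SE; limma, Benjamini-Hochberg adjusted p = 0.496).

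The Tap1 probe covers chr20:4793943-4794002 and the Tapbp probe lies within chr20:5111712-5111882, both on the minus strand of rn4. The Tapbp probe has 60 bases placed over a span of 171, so it lies over more than 1 block of the genome.
Tap1 probe: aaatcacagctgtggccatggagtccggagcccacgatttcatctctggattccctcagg
Tapbp probe: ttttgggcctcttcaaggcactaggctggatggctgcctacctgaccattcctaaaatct

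The repeat hybridizations entered no mean over the rats of a group and no test between groups. They had levels of 1.13 on the ADBR3 array and 1.48 on the WT array for Psmb9 and of 0.24 and 0.48 for Psmb8. They had levels of 4.58 and 4.81 for B2m, -3.31 and -2.85 for Tap1 and -0.87 and -0.72 for Tapbp, in each case the ADBR3 array first. For all of these genes the ADBR3 array was lower than the WT array. Each repeats an array that is not named, so neither counts as a further rat.

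**Figure D2:**
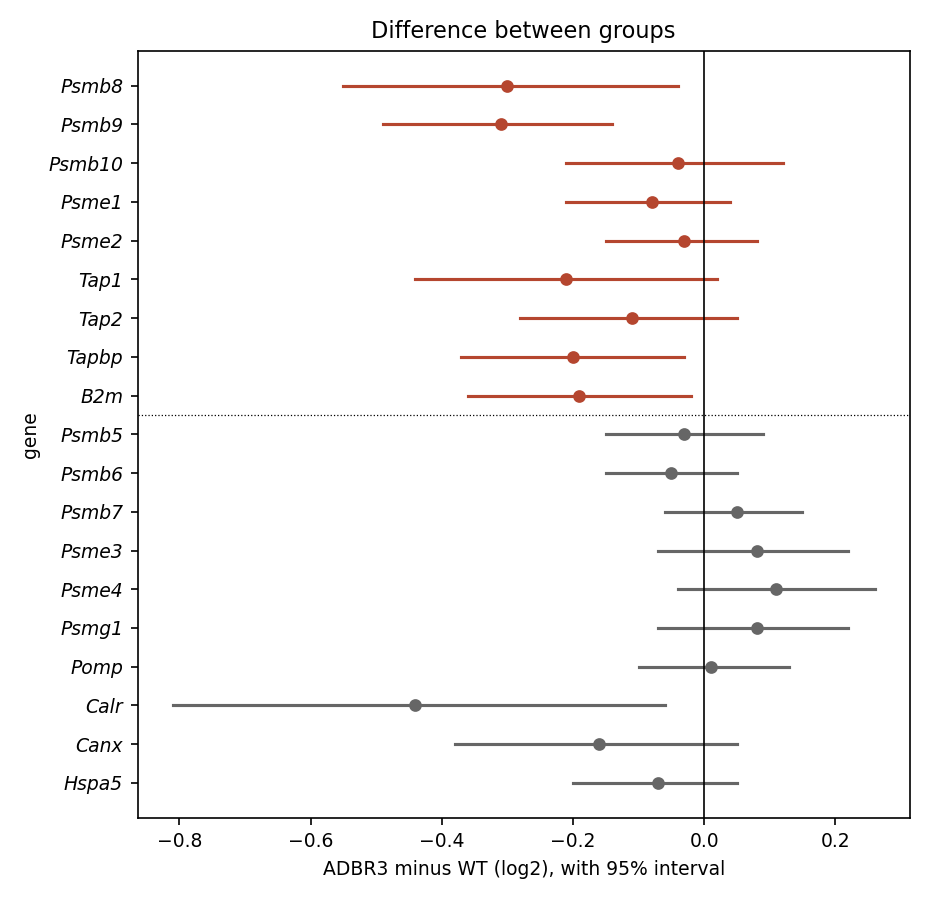
Difference between ADBR3 and WT means (log2) with its 95% interval from limma, for the 9 genes in red above the dotted line and, in grey below it, for the constitutive catalytic subunits and for other activator, assembly and loading genes. The intervals of Psmb8, Psmb9, Tapbp and B2m, and of Calr among the others, lie below 0 before any adjustment over genes.

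Each inducible catalytic subunit was also set against the constitutive subunit it replaces, as a difference of log2 levels within each rat, which does not depend on how an array is scaled by 1 factor. The question was whether the inducible gene differed more between groups than its partner. Psmb9 minus Psmb6 was -1.21, -1.31, -1.11, -1.33 and -1.25 in ADBR3 rats, against -0.90, -0.82, -1.08 and -1.11 in WT rats. The groups did not overlap, but ADBR3 rat 5 and WT rat 6, at -1.113 and -1.108, were almost level. The mean was -1.24 ± 0.0865 in ADBR3 rats and -0.98 ± 0.139 in WT rats. The difference was -0.26 (exact permutation test, two-sided, p = 0.0159, or 0.0476 after Benjamini-Hochberg adjustment over the 3 pairs). The pairs and this test were chosen with earlier results of these data known. The smallest p that 5 and 4 rats allow is 0.00794. A block for slide, which compares only WT rats 1, 4 and 6 with ADBR3 rats 1 and 7, gave -0.2141 (exact permutation p = 0.3333). That design allows no p under 0.1667, and the change cannot be told apart from the change of rats. After adjustment over the pairs, the p was 0.0714 with normexp under either scaling, by the same exact permutation test. When each rat was left out it was 0.0268 to 0.107, under 0.05 only without WT rat 6. Before adjustment it was 0.02857 without any 1 ADBR3 rat and 0.01786 without WT rat 1, 4 or 6, the lowest those designs allow. Without WT rat 3 it was 0.03571, above the 0.01786 which that design allows, and the difference was -0.2106. With 1 rat left out, the adjusted p falls under 0.05 only where another pair is low too. An adjusted p over 0.05 in those designs therefore does not by itself show dependence on 1 rat.

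Psmb8 minus Psmb5 was -3.99, -4.16, -4.28, -4.05 and -4.13 in ADBR3 rats, against -3.79, -3.68, -3.73 and -4.21 in WT rats, with WT rat 6 inside the ADBR3 range. The difference was -0.27 (exact two-sided permutation p = 0.0873, 0.131 adjusted over the pairs), and without WT rat 6 it was -0.3869 (exact permutation p = 0.01786, the smallest that design allows). A block for slide gave -0.1708 (exact permutation p = 0.5), and rats 1, 3 and 6 alone gave -0.1712. Psmb10 minus Psmb7 averaged -0.145 ± 0.119 in ADBR3 rats and -0.0574 ± 0.0894 in WT rats, a difference of -0.09 (exact two-sided permutation p = 0.262, also when adjusted). The partners themselves were close to level, with differences of -0.03 for Psmb5, -0.05 for Psmb6 and 0.05 for Psmb7 (limma, Benjamini-Hochberg adjusted p = 0.881, 0.717 and 0.756).

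**Figure D3:**
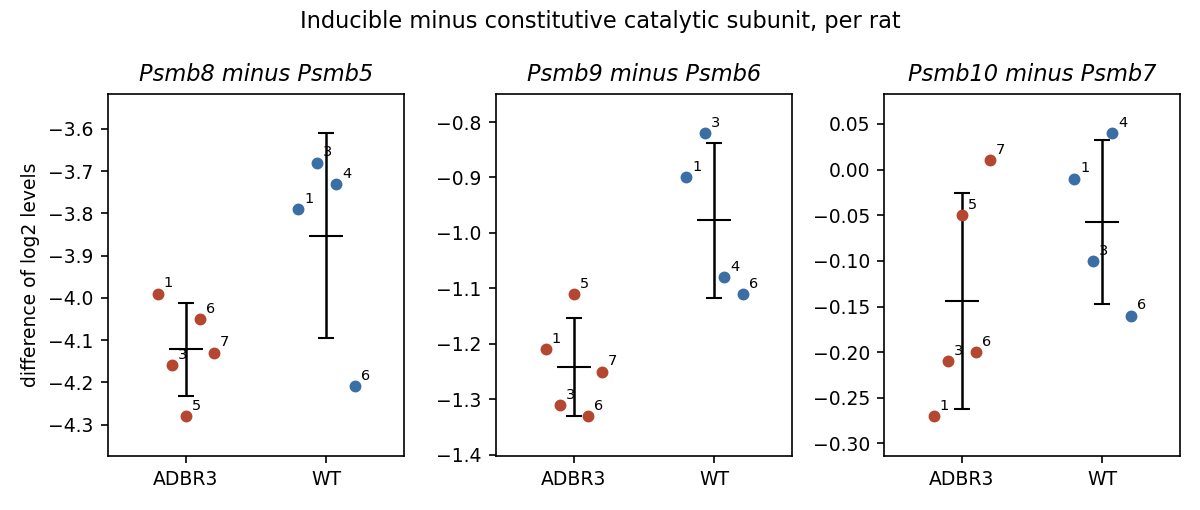
Level of each inducible catalytic subunit minus that of the constitutive subunit it replaces (difference of log2 levels), per rat, with ADBR3 rats left and WT rats right. Points are rats with their heart number and bars are the mean and SD over 5 ADBR3 and 4 WT rats. For Psmb9 minus Psmb6 the highest ADBR3 rat and the lowest WT rat touch at -1.11.

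Taken rat by rat, the 9 genes did not move as 1 block. The mean level of the 9 genes was 1.61, 1.61, 1.71, 1.60 and 1.66 in ADBR3 rats 1, 3, 5, 6 and 7, against 1.83, 1.84, 1.77 and 1.77 in WT rats 1, 3, 4 and 6, so the groups were apart on this mean at the scaling used here. The median deviation from the WT mean over the 9 genes was -0.21, -0.22, -0.08, -0.17 and -0.17 in the ADBR3 rats. The lowest rat was an ADBR3 rat for all 9 genes, rat 1 for 3 of them, rats 3 and 7 for 2 each and rats 5 and 6 for 1 each. The highest rat was a WT rat for 6 genes and an ADBR3 rat for 3. ADBR3 rat 5 held both ends, with the lowest Psmb8 level of all rats, a deviation of -0.48 from the WT mean, and the highest Tap1 level, a deviation of 0.12.

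Within groups, the members followed each other unevenly. On deviations from the group means over the 9 rats, Pearson's r between a gene and the mean of the other 8 was 0.784 for Psmb9, 0.649 for Psme2 and 0.519 for B2m, while it was -0.508 for Psme1, -0.315 for Psmb8 and -0.253 for Tap2. These values describe 9 rats that share the scaling of their arrays. Outside the gene lists used here, the 5 symbols closest to the mean of the 9 genes on the same measure were Hdhd2, Nubpl, Srp68, mrpl24 and Sdhc, with r of 0.915 to 0.949. Their own differences between groups lay between -0.04 and 0.13.

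**Figure D4:**
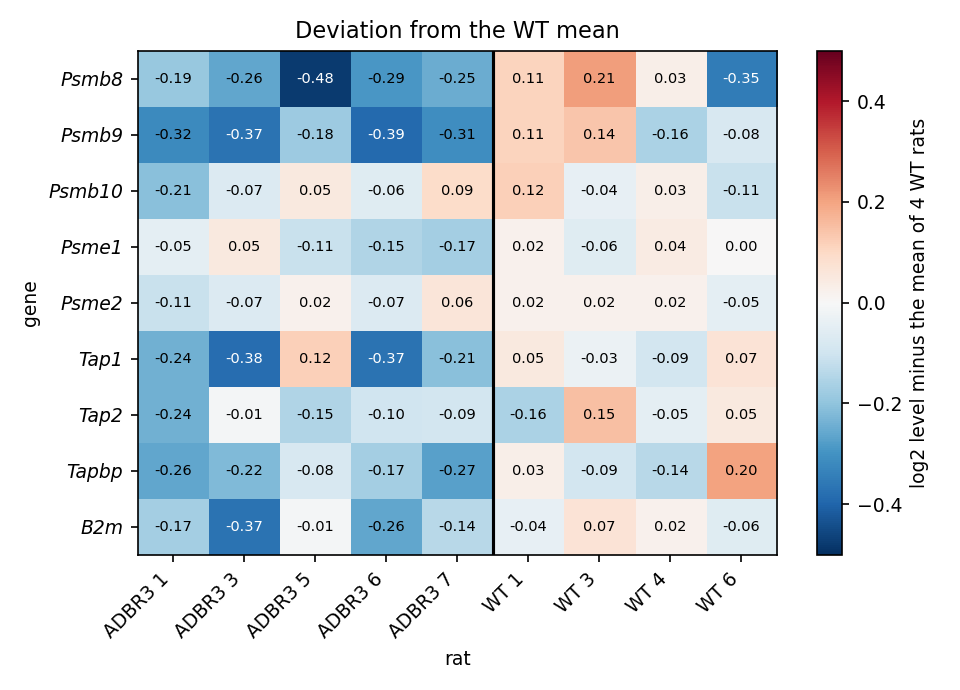
Log2 level of each gene (rows) in each rat (columns) minus the mean of the 4 WT rats, with ADBR3 rats left of the line and WT rats right of it. Blue is below and red above the WT mean. Psmb9 is blue in all 5 ADBR3 rats at -0.18 to -0.39. Psmb8 is blue in all 5 at -0.19 to -0.48, while WT rat 6 also stands at -0.35 for Psmb8.

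Arrays came from 5 slides and 2 scan days, as the file headers give them, and 3 slides and both days hold both groups. Within slides 1, 3 and 4 the number of the 9 genes that were lower in ADBR3 arrays was 9, 7 and 9, with median differences of -0.17, -0.13 and -0.15. Within scan days 1 and 2 it was 9 and 9, with medians of -0.16 and -0.11. These values are differences of means over arrays, not over rats. Slide 1 holds 2 labelings of WT rat 1, and ADBR3 rat 1 enters both days. Slides 1 and 4 are part of day 1 and slide 3 is part of day 2, so the counts are not separate measurements. The share of all genes lower within a slide or day was not worked out. Psmb9 differed by -0.39, -0.15 and -0.28 within the slides and by -0.37 and -0.16 within the days. The genes that were not lower within slide 3, which holds 1 array of each group, were Psmb10 and Psme2, at 0.06 and 0.04. Slides 3 and 4 and day 2 each hold 1 WT array, and that of slide 4 is the WT repeat hybridization. The ADBR3 repeat hybridization is on slide 4 as well, and both enter the values of slide 4 and of day 1. Slides 2 and 5 hold 1 group only. Without the repeat hybridizations slide 4 holds ADBR3 rats only, so the block for slide used elsewhere rests on slides 1 and 3.

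Tap2, Psmb8, Tap1 and Psmb9 lie next to each other on chromosome 20 in the RefSeq gene table, between class II genes. Their differences were, in that order, -0.11, -0.30, -0.21 and -0.31. Of the genes on the Tap2 side, RT1-Db1, RT1-Bb and RT1-DOb, which encode chains of class II molecules, had differences of -0.44, -0.40 and -0.26, with larger spread between rats (limma, Benjamini-Hochberg adjusted p = 0.644, 0.752 and 0.718). On the Psmb9 side, RT1-DMb and RT1-DMa, whose products load peptides onto class II molecules, had -0.07 and -0.11, and Brd2, which encodes a chromatin reader, had 0.03 (limma, adjusted p = 0.894, 0.742 and 0.945). RT1-Db2, RT1-Ba, Brd2l and RT1-DOa were not tested here.

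Subunits of the rest of the proteasome lay on both sides of 0. None of the genes in the lists below passed the test across all genes, and counts at an unadjusted limma p under 0.05 are to be read against 6.29% of all genes lower and 3.15% higher. Of the 12 other 20S core subunits tested, 7 were lower and 5 higher, 0 of them at that p, with a median difference of -0.0197. The nearest to it were Psma4, Psma7 and Psma2, α subunits of the barrel, at -0.14, -0.08 and 0.14, and the brightest, Psma6, was at 0.02. Of 8 other activators, assembly factors and inhibitors, 1 was lower and 7 higher, 0 of them at that p, with a median of 0.0376. Psme4, the activator PA200, was at 0.11, Psme3, the PA28γ activator, and Psmg1, an assembly chaperone, both at 0.08, and Pomp, the factor that matures new barrels, at 0.01.

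Of 11 other loading and trimming genes, 5 were lower and 6 higher, with a median of 0.0049. Calr, which encodes calreticulin, a chaperone of class I molecules in the loading complex, was the 1 gene lower at that p. Its level was 1.49 ± 0.323 (SD, n = 5) in ADBR3 rats and 1.93 ± 0.186 (SD, n = 4) in WT rats, with the groups apart and a difference of -0.44 (limma, Benjamini-Hochberg adjusted p = 0.483). Canx, the chaperone calnexin, was at -0.16, Tpp2, a peptidase of the cytosol, at -0.11 and Hspa5, the chaperone BiP, at -0.07.

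MHC class I genes encode the heavy chains that the loading complex fills with peptides. All 15 tested had a lower mean in ADBR3 rats, 5 of them at an unadjusted p under 0.05 and 1 with the groups apart, with a median difference of -0.329. RT1-CE13 was at -0.38, RT1-EC2 at -0.37, RT1-CE5 at -0.30, RT1-CE10, the 1 with the groups apart, at -0.29 and the bright RT1-A1 at -0.28 (limma, Benjamini-Hochberg adjusted p = 0.295, 0.318, 0.36, 0.306 and 0.445). These genes are near-identical copies of each other, so their probes may read the same transcripts and do not count as 15 measurements. The mean level of the list was 0.67, 0.63, 0.97, 0.57 and 0.57 in ADBR3 rats, against 0.96, 0.94, 0.84 and 1.18 in WT rats, and ADBR3 rat 5 again lay inside the WT range. All 7 class II genes tested were lower, 0 of them at that p, with a median of -0.261, which was -0.1019 without ADBR3 rat 1 and between -0.1338 and -0.127 with normexp, under either scaling, and with the deposited table. Cd74, the invariant chain, was at -0.12 and RT1-Da, a class II chain, at -0.35 (limma, adjusted p = 0.541 and 0.586).

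The known regulators of these genes showed no common direction. Of 16 tested, 7 were lower and 9 higher, with a median of 0.00308. Irf1, a transcription factor that in human and mouse cells switches on Tap1 and Psmb9, was 1.41 ± 0.0517 in ADBR3 rats and 1.54 ± 0.0946 in WT rats (SD, n = 5 and n = 4), and the difference was -0.13 (limma, Benjamini-Hochberg adjusted p = 0.525). Ifngr2, a chain of the interferon-γ receptor, was at 0.25 (limma, adjusted p = 0.461). Ifnar1, a chain of the type I interferon receptor, was at -0.20 (limma, adjusted p = 0.541). Of the 22 regulators listed, 20 were on the array by name. Nlrc5, the main activator of class I genes, and Ifng were among those not tested.

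Of 28 other interferon response genes, 25 were lower and 3 higher, 6 of them lower at that p and 0 higher, 2 of them with the groups apart, with a median of -0.142. Irf7, a transcription factor of the type I interferon response, was at -0.52, Bst2, which tethers viruses to the cell surface, at -0.26, and Parp14, an ADP-ribosyltransferase, at -0.22 (limma, Benjamini-Hochberg adjusted p = 0.422, 0.382 and 0.376). Igtp, an interferon-induced GTPase, was at -0.23. The genes with the groups apart were Parp14 and Ifi44, the second named after its values were seen. The mean level of the list ran from 0.18 to 0.37 in ADBR3 rats, against 0.30 to 0.47 in WT rats.

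Markers of other cell types were read in the same libraries. Of 18 lymphocyte markers 10 were tested, and all 10 were lower in ADBR3 rats, 6 at an unadjusted p under 0.05, with a median of -0.374, which was -0.2198 with normexp and quantile normalization. Cd6 and Gzma, of T cells and killer cells, were at -0.54 and -0.49, and Ptprc, the common leukocyte antigen, at -0.39 (limma, Benjamini-Hochberg adjusted p = 0.311, 0.341 and 0.461). Cd3d and Cd3g, of T cells, were at -0.35 and -0.68 (limma, adjusted p = 0.51 and 0.526), and both were well above background on every array. The mean level of the list was -3.34, -3.27, -3.14, -3.03 and -2.90 in ADBR3 rats 1, 3, 5, 6 and 7. It was -2.93, -2.47, -2.75 and -2.95 in WT rats 1, 3, 4 and 6, and the groups overlapped. Of the 18 markers 17 were on the array by name, and Cd3e, Cd79a and Ms4a1 were among those not tested. Of 12 macrophage and dendritic cell markers 8 were lower and 4 higher, 0 at that p, with list means of -0.99 to -0.55 in ADBR3 rats, against -0.96 to -0.59 in WT rats. Of 10 endothelial markers 9 were lower, 0 at that p, with list means of 0.30 to 0.50 in ADBR3 rats, against 0.45 to 0.52 in WT rats. In RNA of whole tissue, fewer cells of a type and less RNA per cell cannot be told apart, and the part of these markers in the levels of the 9 genes was not tested. All 10 cardiomyocyte markers were well above background on every array, and 5 were lower and 5 higher with a median of 0.00242, 2 of them higher at that p. All 8 fibroblast markers and all 6 smooth muscle and pericyte markers tested were higher in ADBR3 rats, 0 at that p, with medians of 0.124 and 0.049.

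**Figure D5:**
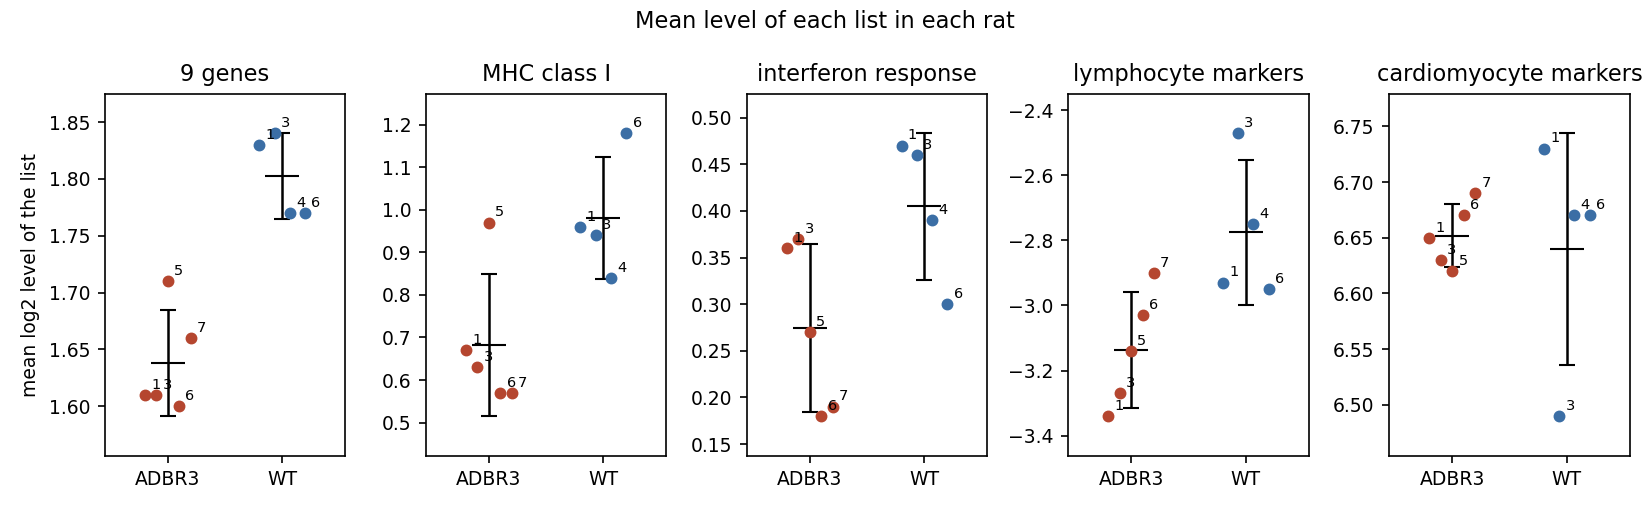
Mean log2 level of the genes of a list in each rat, for the 9 genes, MHC class I genes, other interferon response genes, lymphocyte markers and cardiomyocyte markers, with ADBR3 rats left and WT rats right of each panel. Points are rats with their heart number and bars are the mean and SD over 5 ADBR3 and 4 WT rats. The groups are apart in the panel of the 9 genes and overlap in the others.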

How the data were processed

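RNA of 13 arrays was labelled with Cy3, per the labels' protocols. The authors deposited scanner files of spot intensity, background-subtracted and detrended, per the file headers, by version 10.7.1.1 of Agilent Feature Extraction for design 028279. The value table that was deposited holds values that follow the natural log of the scanner intensity (r of 0.9988 to 0.9999), with no stated scaling, and lists 8 of the 9 genes without Psmb8. It served as an alternative. The processed signal of the scanner files was put on the log2 scale and counted from the array's 75th percentile, spots of a probe and labelings of 1 rat were averaged, and probes well above background in at least 4 of 9 rats were kept (17587 probes, 15367 genes, the brightest probe per gene). The main test was limma (3.58.1; R 4.3.3), with lmFit and eBayes on group alone and p-values adjusted after Benjamini-Hochberg over all genes. Differences of paired subunits were compared with an exact permutation test over all splits of the rats. The script was tested on simulated data. Other tools were Python 3.11.15, the R package data.table (version 1.17.8), pandas 2.3.3, numpy 2.4.6 and matplotlib 3.10.9.

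The 75th percentile of the signal ranged from 760.4 to 908.7 between arrays, 55.2% to 67.8% of spots were well above background, and 0 spots were saturated. The number of rats limits the precision. Labels do not say whether rats of a group share a litter. Alternatives were other scalings (median, quantile), normexp background correction with an offset of 50, the authors' values, other filters on dim probes, other probe summaries, single labelings, slide or scan day as a block, another variance model, heart number as a replicate block and leaving out each rat. The 9 genes, the lists and the tests were chosen with earlier results of these data known. Genes named are the 9, from each list those past the threshold or else the 3 with the smallest p and the brightest, the neighbours of the Tap2 to Psmb9 block and the 5 symbols most like the mean of the 9. RT1-CE5, Ifi44, Cd3d and Cd3g were added after their values were seen, and the cell type lists are named by a few of their markers. Ifng, Nlrc5, Cd3e, Cd79a and Ms4a1 are named as not tested. Promoter sequences are from RefSeq, build GRCr8, matched by symbol for 9 of 9 genes, and probe sequences and rn4 coordinates are from the scanner files. Some genes of the lists are not reported here by name.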

Additional observations from a re-analysis of the deposited data

Results flagged for a closer look

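Psme2 in WT rat 6 had a level of 3.82, against 3.89 to 3.90 in the other WT rats, and stood apart because the gap to the nearest rat was 0.926 of the whole range of the 4 rats. It was the 1 sample to stand apart in the 24 groups checked, of which chance alone marks about 1 in 20. The spread of these WT rats is small, with an SD of 0.0359.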

How the results depend on the processing

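No alternative brought any of the 9 genes past the adjusted threshold, and all tested members (9, or 8 in the deposited table) stayed lower in ADBR3 rats in every alternative except scaling by the array median, where Psmb10 and Psme2 turned to 1.916e-05 and 0.008158. That scaling moves the median of all genes to 0.0326 and the share of lower genes among those at an unadjusted p under 0.05 to 37.4%, against 66.6% at the 75th percentile. The share was 81.5% with no filter on dim probes. The count of the 9 genes lower at that p was 4, and it was 1 with median scaling, 1 with slide as a block and 2 to 4 when each rat was left out, lowest without WT rat 3 or 4. The median difference of -0.1907 became -0.1039 over the 8 genes of the deposited table, -0.1143 with normexp and quantile normalization, and -0.2288 to -0.133 when each rat was left out, nearest 0 without WT rat 6. With slide as a block, which compares only WT rats 1, 4 and 6 with ADBR3 rats 1 and 7, Psmb9 minus Psmb6 was -0.2141 (exact permutation p = 0.3333). On rats 1, 3 and 6 alone, the median difference was -0.2381 both with a replicate block and without it, and Psmb9 minus Psmb6 was -0.3372 both ways (exact permutation p = 0.25 with the replicate block and 0.1 without). The design with slide as a block allows no p under 0.1667. On rats 1, 3 and 6, a full swap of the groups gives a difference of the same size. There, 0.25 with the replicate block and 0.1 without it are the lowest p that the two-sided test can reach. After adjustment over the 3 pairs the p of Psmb9 minus Psmb6 was 0.0476, against 0.0714 with normexp under either scaling (exact permutation). Heart numbers are only shared numbers and pair no rats. Psmb8 minus Psmb5 was -0.3869 without WT rat 6 (exact permutation p = 0.01786), and from -0.3869 to -0.2083 over all rats left out. The cause of these changes was not tested. The number of rats, 5 and 4, limits the precision of every value.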
